A study of Mus musculus with 2 samples.

Results

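The 10 genes described here are known for their roles in germ cells: Prdm1, Tcfap2c, Dppa3, Nanos3, Dazl, Ddx4, Mael, Sycp3, Stra8 and Kit. They were picked by name from the 30774 gene identifiers of an Illumina mouse beadchip, by a rule that uses no measured value, although earlier results of these data were known. The array experiment compared B6 (C57BL/6) mouse embryonic stem cells (mESCs), which the labels trace to the inner cell mass of the E3.5 embryo, under 2 treatments of 12 h in serum medium. LIF, the cytokine that activates Stat3, was given to both, and the GSK3 inhibitor CHIR99021 (CHIR), which activates Wnt/β-catenin signaling, was added to 1 of them. The labels name the cells B6 mESCs, whereas the study describes the line used for this screen as 46C. Each treatment was measured on 1 array, so every difference below is a difference between 2 arrays, has no replicate check and carries no p-value. In whole cultures, a change in the number of cells that use a gene and a change in its RNA per cell cannot be told apart.

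Germ cells of the mouse arise from the epiblast as primordial germ cells, which are set apart by the transcription factors Prdm1 (also called Blimp1), Prdm14 and Tcfap2c (now Tfap2c). They then erase DNA methylation, migrate to the gonad and switch on a later set of genes for RNA control in germ granules, transposon silencing by piRNAs and meiosis. Naive mESCs share some early germ cell transcripts, among them Dppa3. Later germline genes are held silent in mESCs by DNA methylation and by repressor complexes that contain Mga, Max and E2f6, which bind E-box and E2F motifs in germline promoters.

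Promoters are shown for 3 later germline genes that hold an E-box, the hexamer CACGTG, and for Nanos3, an early gene without one. RefSeq windows (build GRCm38.p6) were at hand for 8 of the 10 genes, without Dppa3 and Tcfap2c. Each line gives the 250 bases before the start of the gene, 5′ to 3′ on the strand of the gene. Capitals mark CACGTG, which reads the same on both strands, and the E2F-type hexamer GCGGGA or its reverse TCCCGC. The windows lie at chr13:112652311-112652560 (minus strand) for Ddx4, chr1:166238745-166238994 (minus) for Mael, chr10:88459337-88459586 (plus) for Sycp3 and chr8:84176553-84176802 (minus) for Nanos3.
Ddx4: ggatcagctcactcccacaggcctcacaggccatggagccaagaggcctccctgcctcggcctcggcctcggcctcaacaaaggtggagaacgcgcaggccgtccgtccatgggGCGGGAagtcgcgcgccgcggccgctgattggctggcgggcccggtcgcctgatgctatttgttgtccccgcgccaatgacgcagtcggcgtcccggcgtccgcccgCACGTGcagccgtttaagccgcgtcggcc
Mael: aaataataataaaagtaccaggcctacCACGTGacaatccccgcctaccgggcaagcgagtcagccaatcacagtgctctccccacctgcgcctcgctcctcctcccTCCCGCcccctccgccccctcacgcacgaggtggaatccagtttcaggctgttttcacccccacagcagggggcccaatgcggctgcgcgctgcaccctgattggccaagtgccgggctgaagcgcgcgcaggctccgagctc
Sycp3: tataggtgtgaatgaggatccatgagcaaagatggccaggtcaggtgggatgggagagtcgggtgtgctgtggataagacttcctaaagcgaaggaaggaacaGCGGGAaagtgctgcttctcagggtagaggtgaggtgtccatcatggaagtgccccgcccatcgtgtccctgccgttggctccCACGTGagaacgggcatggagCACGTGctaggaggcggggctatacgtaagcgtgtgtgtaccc
Nanos3: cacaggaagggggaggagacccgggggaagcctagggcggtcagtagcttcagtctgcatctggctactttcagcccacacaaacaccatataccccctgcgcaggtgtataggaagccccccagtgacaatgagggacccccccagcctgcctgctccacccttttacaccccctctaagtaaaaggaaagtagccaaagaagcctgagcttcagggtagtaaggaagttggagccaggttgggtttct

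Counted from its first base, the E-box lay 29 bases before the start of Ddx4, 223 before that of Mael, and 64 and 43 before that of Sycp3. An E2F-type hexamer stood 136 bases before the start in Ddx4, 143 in Mael, with another past its start, and 147 in Sycp3. In Kit, which held no E-box, it stood 117 and 96 bases before the first of the gene's RefSeq starts. Prdm1, Nanos3, Dazl and Stra8 held neither motif, and none of the 8 genes held CTTTGA or its reverse TCAAAG, a form of the Tcf/Lef core. Other forms of that core, such as CTTTGT or its reverse ACAAAG, were not searched, so Tcf/Lef-type sequences are not excluded. All 32851 promoter windows spanned the same 300 bases (250 before and 50 after the start). Among them, the E-box was found in 2349 (7.15%), the E2F-type hexamer in 6562 (20.0%) and CTTTGA or TCAAAG in 5257. The number of CpG sites in the window was 38 in Ddx4, 28 in Dazl, 24 in Mael, 20 in Prdm1, 20 and 21 in the windows of Kit, 15 in Sycp3, 10 in Stra8 and 3 in Nanos3, against a median of 7 over all windows. A match is a description of the letters and not a measured binding site.

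Of the 10 genes, 3 were detected on both arrays (Dppa3, Tcfap2c and Nanos3) and 7 on neither. Detection means a detection p-value under 0.01, where the p-value of a single probe is the share of negative controls that were brighter. By comparison, 31.2% of all 30774 identifiers were detected on at least 1 array. Of the 3 detected genes, none was 1.5-fold or more higher in LIF plus CHIR, and none was 1.5-fold or more lower. The 7 genes not detected have no called fold change. The background shares of such differences among the 9615 detected identifiers were 2.95% higher and 3.14% lower. With 3 detected genes, a count of 0 lies near those shares and is no result about the germline genes as a group. The plot of signals by gene shows the full set.

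**Figure D1:**
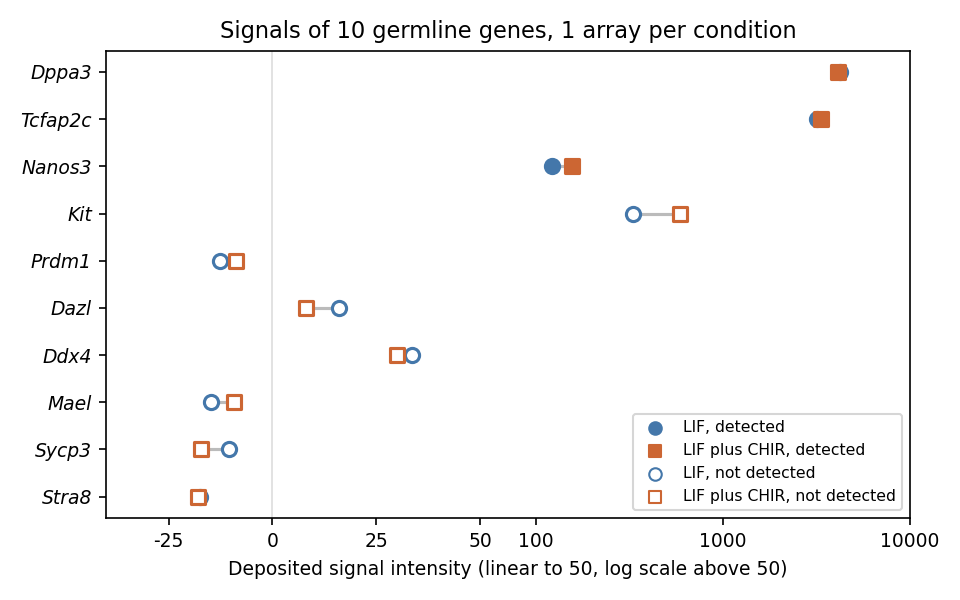
Signal intensity of the 10 germline genes (horizontal axis, deposited units, linear to 50 and logarithmic above) in LIF (circles) and LIF plus CHIR (squares), 1 array each, with filled marks for a detection p-value under 0.01. Dppa3, Tcfap2c and Nanos3 are filled on both arrays, Kit lies far above 0 but is open on both, and Prdm1, Mael, Sycp3 and Stra8 lie below 0 on both.

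Dppa3 (also called Stella), a protein that shields maternal DNA methylation in the fertilised egg and marks primordial germ cells, gave a signal of 4216 in LIF and 4105 with CHIR. The signals were within 1.03-fold of each other, a log2 fold change of -0.04. Its identifier (Entrez gene 73708) is placed on chromosome 6, band 6qF1, by the array annotation. Tcfap2c (Entrez gene 21420, chromosome 2, band 2qH3), the AP2γ transcription factor that acts downstream of Prdm1 in germ cell specification, had a signal of 3175 in LIF and 3329 with CHIR. It was 1.05-fold higher with CHIR (log2 fold change 0.07). Among the 3269 detected identifiers whose brighter signal was 1000 or more, 5% lay below -0.29 and 5% above 0.28, so both genes lay well inside the usual difference between these arrays. Both detection p-values of both genes were 0, which for a single probe means that none of the 936 negative controls was brighter. The number of probes of the 2 genes is not resolved.

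Nanos3 (Entrez gene 244551, chromosome 8, band 8qC3), an RNA-binding protein that keeps migrating primordial germ cells alive, was dim but detected, also with p-values of 0. Its signal was 122 in LIF and 155 with CHIR, 1.27-fold higher (log2 fold change 0.34). The difference of 32.8 was 1.73 times the background SD of a difference (19.0), as read from the negative controls. Among the 4521 detected identifiers with a brighter signal from 100 to 1000, 5% lay above 0.50 and 5% below -0.51. Nanos3 thus stayed under the 1.5-fold limit and within that range.

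Prdm1 (Entrez gene 12142, chromosome 10, band 10qB2), the repressor that starts the germ cell programme, was not detected. Its signal was -12.7 in LIF and -8.87 with CHIR, with detection p-values of 0.864 and 0.790. Signals below 0 arise because the background was subtracted before deposit, and 11742 identifiers in LIF and 11741 with CHIR were below 0. Prdm1 and Tcfap2c, which act in the same specification network, therefore stood on opposite sides of the detection limit on both arrays. The third factor of that network, Prdm14, was not detected at 0.01 either, with a signal of 36.5 (detection p-value 0.0406) in LIF and 28.3 (0.0673) with CHIR.

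Kit, the receptor tyrosine kinase that guides and sustains migrating germ cells and also serves mast and blood cells, showed the largest difference in signal of the 10 genes. Its signal was 330 in LIF and 591 with CHIR, a plain ratio of 1.79 (log2 0.84). Among detected identifiers of like brightness 5% lay above 0.50, but that set leaves out undetected identifiers such as Kit and is no like comparison. The detection p-values of Kit were 0.0697 and 0.0340, so it did not reach the limit of 0.01 on either array and has no called fold change. Kit is an identifier with several probes, whose p-values are combined and can be large although the mean signal is bright. Among identifiers with a signal from 300 to 600, 265 of 1593 (16.6%) in LIF and 272 of 1574 (17.3%) with CHIR likewise missed the limit. All of those had several probes. That split was fixed in advance, because single probes exceed every negative control from about 75.5 in LIF and 70.7 with CHIR. Why Kit missed the limit was not tested. Under a detection limit of 0.05, Kit entered through the LIF plus CHIR array, and 4.05% of the 11702 identifiers that then passed were 1.5-fold or more higher. The RNA of its ligand Kitl was not detected, with signals of -10.0 and -8.47. None of the 8 blood and mast cell markers (Ptprc, Tal1, Gata1, Cd34, Runx1, Fcer1a, Cpa3 and Mcpt4) was detected on either array, and their highest signals were 22.7 in LIF and 38.9 with CHIR.

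The genes of later germ cells were not detected. Dazl, an RNA-binding protein that licenses germ cells for sexual differentiation, gave 16.1 in LIF (detection p-value 0.0945) and 8.12 with CHIR (0.417). Ddx4, the Vasa RNA helicase of germ granules (Entrez gene 13206, chromosome 13, band 13qD2.2), gave 33.6 (detection p-value 0.505) and 30.1 (0.427). Both identifiers have several probes, and the differences of -7.96 and -3.57 were smaller than the background SD of a difference. Ddx4 was brighter than the lowest detected signals of identifiers with several probes (15.1 and 14.8), so its p-values alone do not place it at background. No ratio is given for either gene.

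Mael, a protein of the piRNA pathway (Entrez gene 98558, chromosome 1, band 1qH2.3), has 1 probe, which allows a direct reading against the controls. Its signal was -14.7 in LIF, where 854 of the 936 negative controls were brighter, and -9.38 with CHIR, where 647 were brighter. Sycp3, a lateral element protein of the synaptonemal complex (Entrez gene 20962, chromosome 10, band 10qC1), gave -10.4 with 694 controls brighter in LIF, and -17.1 with 898 brighter with CHIR. Stra8, the retinoic acid-induced gatekeeper of meiosis (Entrez gene 20899, chromosome 6, band 6qB1), gave -17.4 with 906 controls brighter and -17.9 with 902 brighter. All 3 genes thus lay in the dimmer part of the control distribution on both arrays. The background SD was 13.2 in LIF and 13.6 with CHIR, and a single probe needed a signal of about 51.7 and 48.1 to be called detected. RNA below that limit was not detectable, so these genes cannot be called absent.

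**Figure D2:**
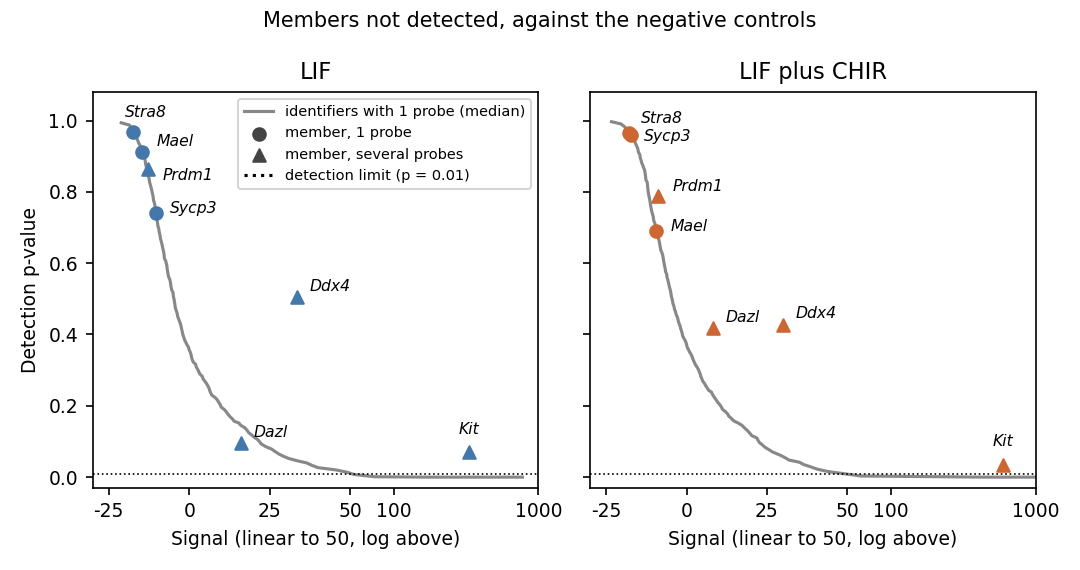
Detection p-value (vertical axis) against signal (horizontal axis, linear to 50 and logarithmic above) on each array for the 7 germline genes not detected, with 1 probe (circles) or several (triangles). The grey line is the median signal of 1-probe identifiers at each p-value, and the dotted line is the limit of 0.01. Mael, Sycp3 and Stra8 sit on the line. Kit, Ddx4 and, only slightly in LIF, Prdm1 lie to its right on both arrays and so have larger p-values than 1 probe of that signal would. Dazl lies to its right with CHIR and to its left in LIF.

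The set of 10 was extended by 5 further lists of germline genes, 101 genes in all, of which 96 were found on the array under 100 identifiers. Of these identifiers, 30 were detected (30%), a share close to the 31.2% over all identifiers. By list, 12 of 21 identifiers of other primordial germ cell genes were detected, 5 of 20 of piRNA and nuage (germ granule) genes, 6 of 26 of meiosis genes, 3 of 17 of spermatogonial and spermatid genes and 4 of 16 of oocyte genes. Among the 70 that were not detected, 48 had 1 probe, and the highest signal of those was 40.9. The detection limit alone keeps an undetected single probe under about 51.7. The other 22 had several probes, and their highest signals were those of Rnf17, a Tudor domain protein of germ granules, at 180 in LIF and 125 with CHIR. Of the 30 detected, 1 was 1.5-fold or more higher with CHIR and 2 were 1.5-fold or more lower, beside 2.95% and 3.14% of all detected identifiers. Of the 29 with a fold change 21 lay below 0, beside 50.3% of the 9366 identifiers with a fold change. Their median log2 fold change was -0.20, beside -0.00 over all detected identifiers. The number of genes differs from list to list and some genes, such as Dppa5a and Sall4, also belong to the mESC programme.

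Among the other primordial germ cell genes, Alpl, the tissue-nonspecific alkaline phosphatase that is a classical stain for both germ cells and mESCs, stood apart. Its signal was 1487 in LIF and 3099 with CHIR, 2.08-fold higher (log2 1.06). Of the 3269 detected identifiers this bright, 1.19% were 1.5-fold or more higher. Bmp4, the ligand that induces primordial germ cells from the epiblast, was 1.45-fold higher, at 1504 and 2174, just under the limit. Its log2 fold change of 0.53 lay beyond the upper 5% limit of 0.28 for this brightness. Among the other bright signals of this list, Dppa5a gave 57706 and 55732 (log2 fold change -0.05), and Ifitm3, a surface protein of early germ cells, gave 16917 and 13680 (-0.31, beyond the 5% limit of -0.29). The related Ifitm1 gave 10624 and 8846 (-0.26). Pdpn gave 6298 and 5128 (-0.30), also just beyond -0.29. Dnd1, an RNA-binding partner of Nanos proteins, gave 1682 and 1435 (-0.23). The median of the list was -0.09.

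All 5 detected genes of the piRNA and nuage list had lower signals in LIF plus CHIR, with a median log2 fold change of -0.26. Tex19.2, a relative of the transposon regulator Tex19.1, was 1.80-fold lower, at 469 in LIF and 261 with CHIR. It was the only gene of this list past the limit, where 3.65% of detected identifiers of like brightness (100 to 1000) were 1.5-fold or more lower. Tex19.1 itself gave 6608 and 5462 (-0.27), and the Tudor domain protein Tdrd12 gave 5658 and 5471 (-0.05). Ddx25, an RNA helicase of round spermatids, gave 1035 and 876 (-0.24). Piwil2, a PIWI protein that binds piRNAs, gave 615 and 512 (-0.26). Apart from Tex19.2, these differences lay between the 5% limits for their brightness given above.

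No detected meiosis gene passed the limit, beside 2.95% higher and 3.14% lower over all detected identifiers. The median log2 fold change of the detected meiosis genes was -0.17. Of the meiotic cohesin subunits, Rec8 gave 402 in LIF and 513 with CHIR (log2 fold change 0.35), and Stag3 gave 633 and 569 (-0.15). The synaptonemal complex gene Syce3 gave 132 and 109 (-0.27). All 3 lay between the 5% limits for their brightness. Of the spermatogonial and spermatid genes, Dazap1, which is widely used outside the germline, gave 4682 and 4855 (0.05). The testis lactate dehydrogenase Ldhc gave 143 and 123 (-0.22). Neurog3, a factor of spermatogonial progenitors, was detected in LIF alone, with a signal of 67.6 (detection p-value 0.00214) in LIF and 24.4 (0.0833) with CHIR. Against the lowest detected signal of a single probe (47.1), it was at least 1.44-fold lower.

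Among the oocyte genes, Khdc3, a component of the maternal complex under the egg surface, was 2.27-fold lower with CHIR, at 764 in LIF and 337 with CHIR (log2 fold change -1.18). Ooep, another component of that complex, gave 17305 and 15023 (-0.20). The egg coat protein Zp3 gave 782 and 880 (0.17). Gdf9, an oocyte growth factor, gave 35.3 (detection p-value 0.0449) and 48.3 (0.00962), too close to the limit for a fold change. Of these oocyte genes, Khdc3 alone passed the limit, where 3.65% of detected identifiers of like brightness (100 to 1000) were 1.5-fold or more lower.

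**Figure D3:**
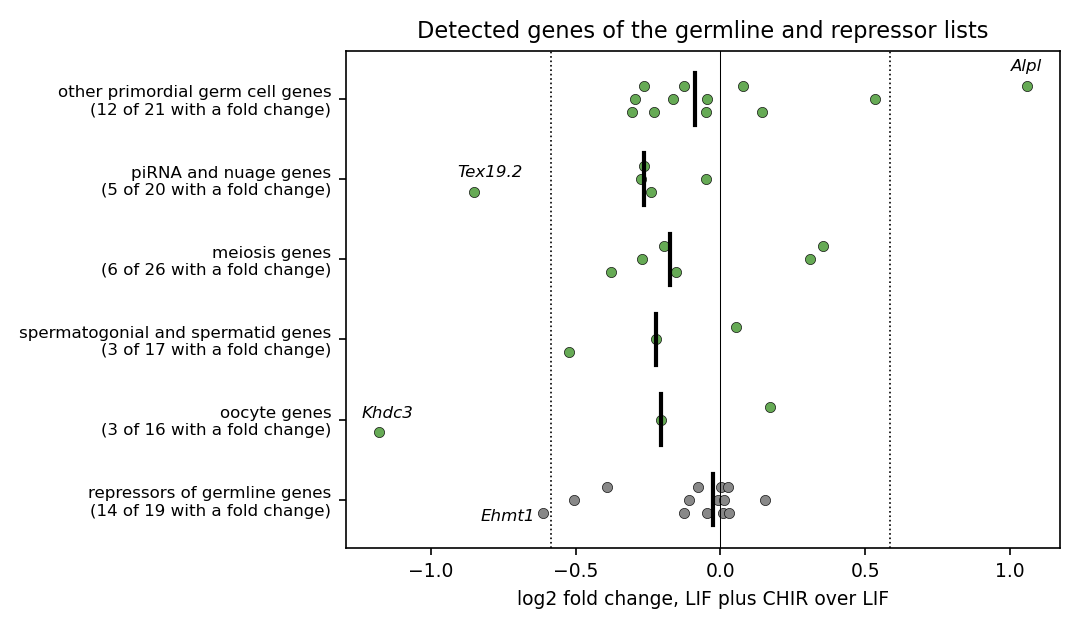
Log2 fold change of LIF plus CHIR over LIF (horizontal axis) for detected genes of the 5 germline lists (green) and of the repressor list (grey), 1 point per identifier, with list medians as black bars and the 1.5-fold limits dotted. Vertical offsets within a list only separate points. Alpl lies beyond the upper limit, Khdc3, Tex19.2 and Ehmt1 lie beyond the lower one, and all 5 piRNA and nuage points lie below 0.

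**Figure D4:**
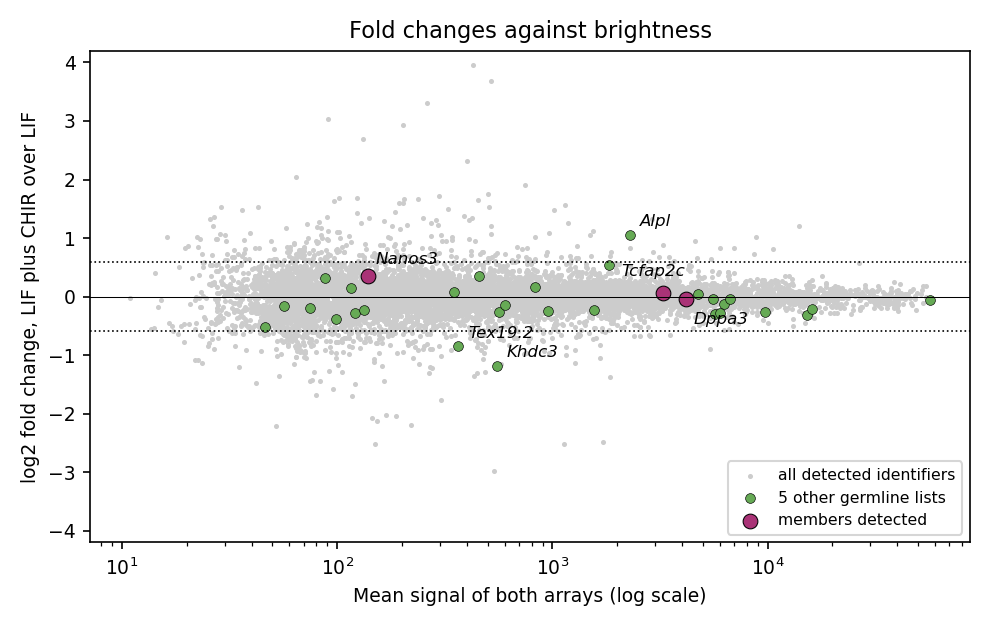
Log2 fold change (vertical axis) against the mean signal of both arrays (horizontal axis, logarithmic) for all detected identifiers (grey), the 5 further germline lists (green) and the detected germline genes of the main set (purple). Dotted lines are the 1.5-fold limits. Dppa3 and Tcfap2c sit near 0 among bright identifiers, and Nanos3 sits inside the wider scatter of dim ones.

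The repressors of germline genes were mostly detected, at 14 of 19 identifiers (31.2% over all identifiers), with a median log2 fold change of -0.03. Dnmt3a, Rnf2 and Morc1 were not detected, with signals near or below 0. Uhrf1 (2792 and 2522) and Cbx3 (2746 and 2467) were bright but, with several probes, missed the limit. Mga, the large Max partner that recognises E-boxes, gave 133 and 135 (0.01), and Max gave 175 and 194 (0.15). E2f6 gave 968 and 986 (0.03), and Pcgf6, a Polycomb subunit of the same complex, gave 4211 and 4237 (0.01). The de novo DNA methyltransferase Dnmt3b gave 15438 and 10870, 1.42-fold lower (-0.51), and its cofactor Dnmt3l gave 41020 and 38016 (-0.11). The maintenance methyltransferase Dnmt1 gave 1773 and 1762 (-0.01). Ehmt1, which with Ehmt2 (G9a) methylates histone H3 at lysine 9, was the single repressor past the limit, 1.53-fold lower at 110 and 71.9 (-0.61), where 3.65% of detected identifiers of like brightness were 1.5-fold or more lower. After normexp background correction it was at -0.52 and no longer past the limit. Ehmt2 gave 2169 and 1653 (-0.39). Like Dnmt3b, it lay under 1.5-fold but beyond the 5% limit of -0.29. No relation between these values and the later germline genes was tested.

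The E-box was also counted in the promoters of the lists, as a property of the sequence and not of the arrays. It was found in 7 of 15 piRNA and nuage genes (46.7%) and 8 of 21 meiosis genes (38.1%). The shares were 3 of 13 spermatogonial and spermatid genes (23.1%), 2 of 14 other primordial germ cell genes (14.3%), 1 of 11 oocyte genes (9.09%) and 4 of 17 repressors (23.5%). Over all 27025 genes with a window the share was 8.09%. Among piRNA, nuage and meiosis genes with a window, 3 of 15 with an E-box were detected on an array (Ddx25, Stag3 and Taf7l). Of those without an E-box, 7 of 21 were detected, where 31.2% of all identifiers were. Of the main set, Ddx4, Mael and Sycp3 hold an E-box and were not detected. Without one, Nanos3 was detected, and Prdm1, Dazl, Stra8 and Kit were not. A relation between the E-box and detection was not tested.

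**Figure D5:**
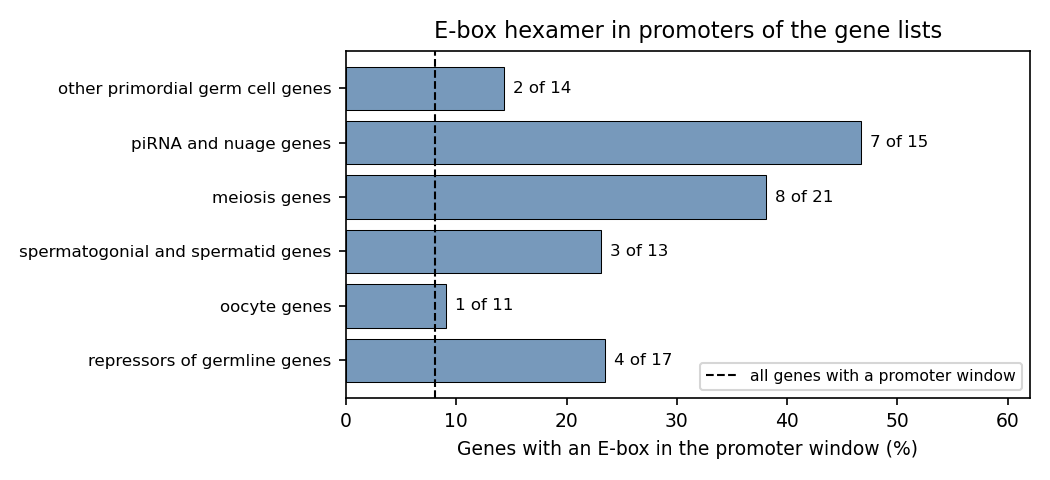
Percentage of genes whose RefSeq promoter window holds the E-box hexamer (horizontal axis, from 0) for each gene list, with counts of genes beside the bars. The dashed line is the share over all genes with a window (8.09%). The bars of the piRNA and nuage genes (46.7%) and the meiosis genes (38.1%) are the longest.

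At the limit of 0.01, the LIF array detected 9021 identifiers and the other array 9174. The Wnt/β-catenin targets Axin2, Sp5, T and Cdx1 were all past the limit with CHIR, Axin2 at 314 and 1178, which checks the treatment labels. Of 10 mESC markers 8 were detected, among them Pou5f1 (12347 and 11309), while Sox2 (441 and 400, several probes) and Tdgf1 were not. None of 8 feeder fibroblast markers was detected, with summed signals of 204 and 201 that came from Thy1 (222 and 225, several probes). Of the endoderm markers, 2 of 8 were detected (Sox7 and Lama1). The sums over all 8 were 1634 and 1958, most of it Lama1 (1538 and 1879). Of the trophoblast markers, 2 of 9 were detected (Cdx2 and Krt7). The sums over all 9 were 179 and 244 and include undetected markers, such as Ascl2 at 90.7 and 52.3. Cdx2 was detected with CHIR alone, at 23.6 and 93.5, at least 1.80-fold higher and past the limit. The part of these other cell types in the germline signals was not tested.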

How the data were processed

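Total RNA of mESCs from each treatment was hybridised to 1 array, and groups were taken from the sample titles. The growth protocol of both samples names CHIR as well as LIF, so the titles alone tell which cells received it. The deposited values are linear signal intensities, background-subtracted and summarised to 1 value per identifier, each deposited with a detection p-value. The deposited longer and shorter tables, labelled as non-normalized and normalized, held the same values for the 11702 identifiers they share (0 differed). Whether the values used here were normalized is therefore not known. Array software, normalization and genome build are not given in the sources used here. The methods state a dose of CHIR for serum-free culture but tie none to the arrayed cells. The study used a 1.5-fold limit and names no test for the arrays.

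Python 3.11.15 with numpy 2.4.6 and pandas 2.3.3 gave the log2 fold changes, and matplotlib 3.10.9 the plots. Identifiers were kept if either array had a detection p-value under 0.01. P-values in multiples of 1 over 936 (tolerance 0.001 of a control) on both arrays were taken to mean 1 probe, others several. The number of negative controls, 936, was itself inferred from the spacing of the p-values. For p-values of 0 on both arrays (6582 identifiers) the number of probes is not resolved. A signal below the lowest detected one of its kind (1 probe: 51.9 in LIF, 47.1 in LIF plus CHIR; several: 15.1 and 14.8) was raised to it. No fold was given for 249 identifiers whose only detected side was then not the brighter one. Of the 10 genes, 8 were matched by Entrez gene number and 2 (Dazl and Kit) by symbol. Listed genes not found on the array were Tdrd5, Rad21l, Meioc, Prm2, Zar1 and Zbtb7b. Genes were named if they belonged to the set of 10, passed 1.5-fold in a list, or were among the 3 brightest of a list, and others were chosen after their values were seen. The 10 genes and the lists were chosen with earlier results of these data known. The calculation was tested on simulated data. Alternatives were quantile normalization, scaling to equal medians, normexp background correction by limma 3.58.1 (R 4.3.3; offset 16), other detection and minimum rules and a 2-fold limit.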

Additional observations from a re-analysis of the deposited data

How the results depend on the processing

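No paired analysis was possible because there was only 1 array for LIF and 1 for LIF plus CHIR, so that none could be left out either. Across the alternatives that gave a value, the log2 fold change of Dppa3 stayed at -0.04, that of Tcfap2c between 0.06 and 0.07, and that of Nanos3 between 0.31 and 0.34. The plain log2 ratio of Kit ranged from 0.81 to 0.84. Of the 10 genes, 1 became higher (Kit) at a detection limit of 0.05 or with no detection filter, and 1 became lower (Dazl, not detected) with no filter. Over all identifiers, 474 of 11702 (4.05%) were higher and 517 lower at a detection limit of 0.05. At a 2-fold limit, 76 and 54 of the 9615 detected identifiers were higher and lower. With no filter, which let in every identifier with both signals above 0, the counts were 2046 and 2091. In the 5 further germline lists (100 identifiers), 9 were higher and 9 lower with no filter, 4 were lower at 0.05, and 1 was lower at a 2-fold limit. How many germline identifiers entered at each setting was not counted, so these counts are no result about the lists. The median log2 fold change of the spermatogonial and spermatid genes was -0.0853 with detection on both arrays. That of the oocyte genes was -0.0154 under normexp, -0.0170 at 0.05, with the minimum of all identifiers and with no minimum, and 0.0625 with no filter. Neurog3 passed the 1.5-fold limit under normexp (-0.99), at 0.05 (-1.11) and with no filter, the minimum of all identifiers or no minimum (-1.47). Ehmt1 fell short of it under normexp (-0.52). Quantile normalization and scaling to equal medians changed none of the 49 listed genes with a fold change. The causes were not tested. Precision is limited by 1 array per condition, and dim signals by a background SD of 13.2 in LIF and 13.6 in LIF plus CHIR.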

Other observations

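Dppa3 lies in a cluster of genes active in pluripotent cells, and the 6 listed neighbours were all detected on both arrays. Nanog, the homeobox factor of the naive state, had the largest log2 fold change of the 6, with 1660 in LIF and 2429 with CHIR. It was 1.46-fold higher (log2 0.55), beyond the upper 5% limit of 0.28 for its brightness. The glucose transporter Slc2a3 gave 15331 and 17294 (0.17), and the TGFβ family ligand Gdf3 gave 5716 and 5976 (0.06). Foxj2 gave 179 and 193 (0.10), Necap1 gave 1939 and 1712 (-0.18) and the RNA-editing enzyme Apobec1 gave 178 and 151 (-0.24). None passed the 1.5-fold limit, and the median of the 6 was 0.08, beside -0.04 for Dppa3 itself.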
